A study of Mus musculus with 15 samples.

Results

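A set of 10 developmental transcription factors outside the Hox clusters, each known as a mark of some fat depot, was followed in perivascular adipose tissue (PVAT), the fat around the aorta. They were chosen by gene symbol: the zinc finger factors Zic1 and Wt1, the LIM homeobox factor Lhx8, the T-box factors Tbx1, Tbx5, Tbx15 and Tbx18, the bHLH factor Tcf21, and the paired-class homeobox factors Shox2 and Prrx1. All 10 were among the 43352 genes of the count table, and 9 of them, without Zic1, were among the 19645 genes with enough counts to test.

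RNA of mice aged 11 weeks was sequenced from abdominal PVAT (aPVAT) and thoracic PVAT (tPVAT). The libraries were 3 of aPVAT cKO (numbers 1, 3 and 4), 4 of aPVAT control, 4 of tPVAT cKO and 4 of tPVAT control. Every mouse carried floxed Prdm16, and the cKO mice carried AdipoQCre as well, a Cre recombinase driven from the Adipoq gene, which is active in adipocytes and not in the other cells of the tissue. Whether the libraries of a group come from different mice is not stated, and p-values then reflect only the spread among them, which may be technical.

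These factors are set up in the embryo, where they divide mesoderm into heart, limb, somite and body wall fields, and fat precursors keep part of that code in the adult. Zic1 and Lhx8 are known from classical brown fat, Tbx1 from beige fat, and Tcf21 and Wt1 from visceral white fat. Several of them are best known in cells other than adipocytes: Prrx1 and Tcf21 in fibroblasts and progenitors, Tbx18 in the smooth muscle and pericytes of vessel walls, Wt1 in the mesothelium that covers visceral organs, and Tbx5 in heart muscle.

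Total counts were between 37.8 M and 68.7 M per library. Genes of the mitochondrial genome took 13.3% to 13.9% of the counts in aPVAT cKO, 13.0% to 15.99% in aPVAT controls, 26.5% to 31.6% in tPVAT cKO and 33.4% to 36.4% in tPVAT controls. The libraries aPVAT cKO 4 (0.125% of counts) and aPVAT control 2 (0.0200%) had the most structural RNA, and aPVAT cKO 1 came next (0.0127%). The total of 37.8 M, the lowest, was that of aPVAT cKO 4. Results that rest on aPVAT cKO 4 and aPVAT control 2 are given with and without them. Adipocyte markers summed to 18019 to 22488 CPM (counts per M of library size, scaled between libraries by TMM) in aPVAT cKO, 17240 to 20085 in aPVAT controls, 21930 to 23944 in tPVAT cKO and 18047 to 19711 in tPVAT controls, and none of the 12 was at 0. Thermogenic markers summed to 187 to 247 CPM in aPVAT cKO, 778 to 1270 in aPVAT controls, 5658 to 6895 in tPVAT cKO and 8898 to 9630 in tPVAT controls. Prdm16, the targeted coregulator of the thermogenic programme, had 15.1, 14.7 and 18.3 CPM in aPVAT cKO, against 26.8, 21.4, 23.3 and 23.4 in aPVAT controls. In tPVAT it had 22.4, 21.2, 22.2 and 23.8 CPM in cKO, against 46.4, 41.1, 46.3 and 55.6 in controls. It fell in both depots (log2 fold change −0.57, SE 0.105, adjusted p = 0.00992 in aPVAT; −1.08, SE 0.0970, adjusted p = 2.22e-06 in tPVAT; edgeR quasi-likelihood test), and in aPVAT it no longer passed when aPVAT cKO 1 (−0.53, adjusted p = 0.0692) or aPVAT cKO 3 (−0.51, adjusted p = 0.0591) was left out, or with only the groups compared (−0.55, adjusted p = 0.07395).

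The depots carried different combinations of these factors. Tcf21 was higher in aPVAT, and Tbx5, Tbx1 and Lhx8 were lower there, in cKO and in control mice alike. With library totals alone the Lhx8 calls ended in both genotypes. In controls Tbx18, Shox2 and Tbx15 were also called lower in aPVAT, calls that ended with library totals alone. They did not pass in cKO, but the interaction did not pass for any of these 3 either, so the genotypes are not shown to differ. Loss of Prdm16 from adipocytes went with less Tbx18 and more Prrx1 in tPVAT, both beyond the spread between libraries. No member passed in aPVAT.

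**Figure D1:**
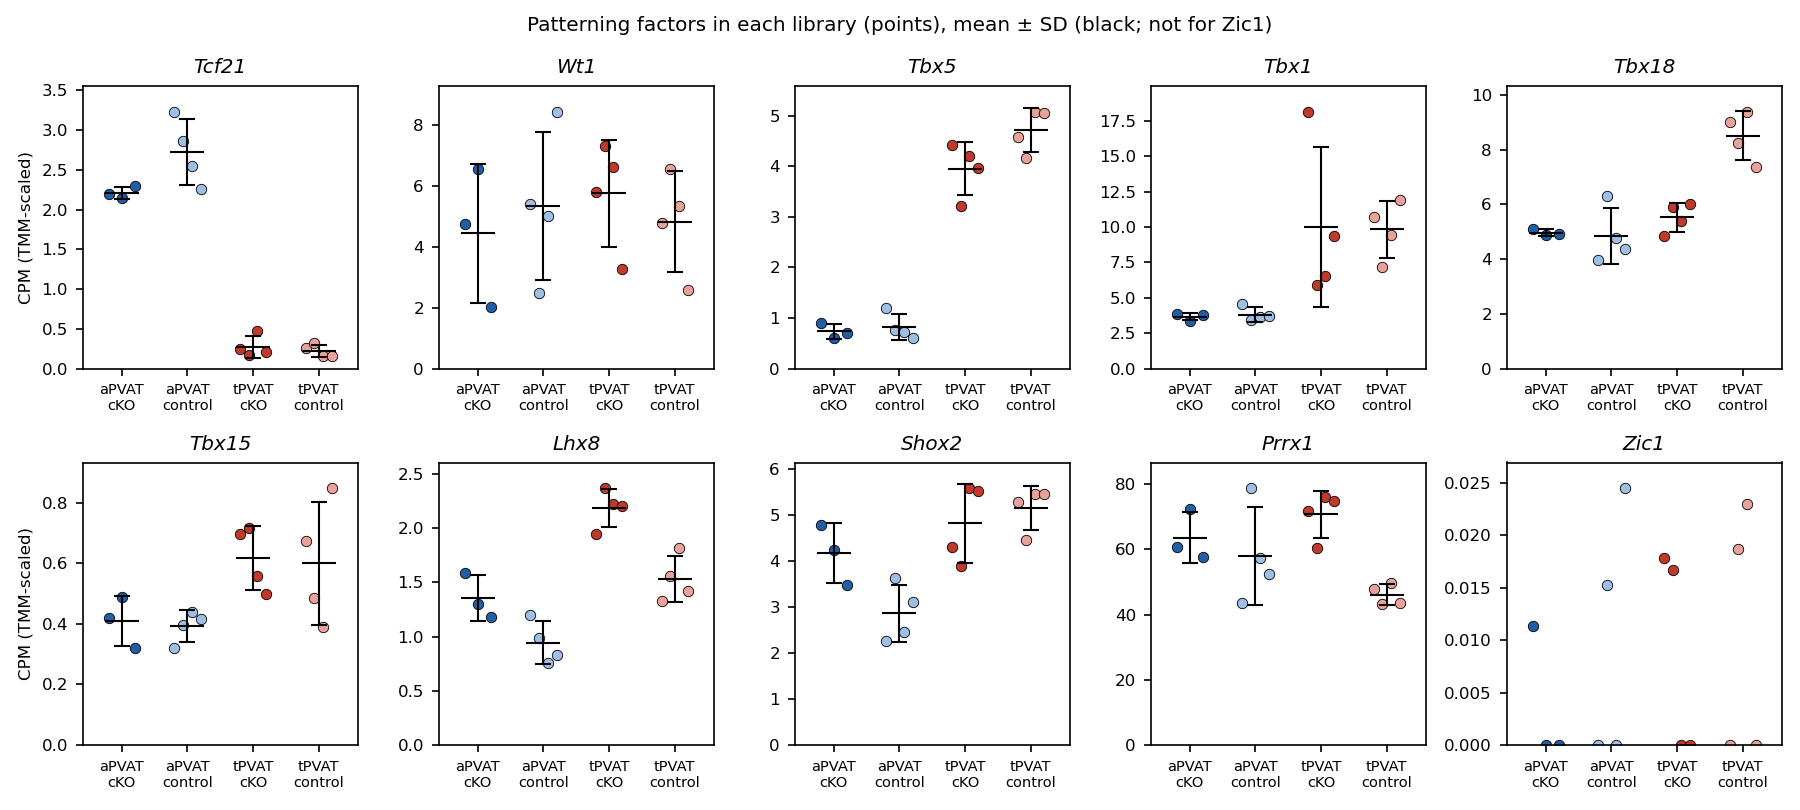
CPM of each of the 10 factors in every library (points), by group, with the mean and SD in black except for Zic1, whose libraries all hold under 3 counts. Each panel has its own axis from 0. Tcf21 lies above 2 CPM in all aPVAT libraries and under 0.48 CPM in all tPVAT libraries, and Tbx5 shows the opposite order.

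Between the depots, 4 of the 9 tested members passed in cKO mice, 1 higher and 3 lower in aPVAT, where 52.6% of all tested genes passed (27.2% higher, 25.4% lower). In control mice 7 of the 9 passed, 1 higher and 6 lower in aPVAT, where 56.6% of all tested genes passed (29.3% higher, 27.3% lower). Such a share of all genes differed between the depots that a call as such sets no member apart. The members' median log2 difference was −0.35 in cKO and −0.69 in controls, beside 0.04 over all tested genes in both comparisons. Scaling by library totals alone, with no correction for composition, raised the median log2 difference of all genes by 0.65 in cKO and by 0.75 in controls. Of the called genes, 90.6% in cKO and 91.2% in controls were then higher in aPVAT, against 51.7% in both by TMM. Depot differences below are relative to the TMM scale, and members whose direction or call turns on that choice are named.

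By genotype, none of the 9 members passed in aPVAT, where 1.53% of all tested genes passed. Before adjustment 2 had a p under 0.05, and DESeq2 also called 0 of the 9. In tPVAT 3 of the 9 passed, Lhx8 and Prrx1 higher and Tbx18 lower in cKO, where 12% of all tested genes passed (5.44% higher, 6.61% lower). The members' median log2 fold change was 0.03 in aPVAT and 0.05 in tPVAT, beside −0.01 over all tested genes in both. The interaction test, the aPVAT genotype effect minus the tPVAT one, passed for 0 of the 9 members and for 0.784% of all genes (0.158% positive, 0.626% negative). Before adjustment 3 members had a p under 0.05, DESeq2 called 0, and a limma fit with a weight per library called 1.

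Stretches of DNA just upstream of Tcf21, which differed most between the depots, and of Tbx18 and Prrx1, the pair with opposite genotype effects in tPVAT, are printed here from RefSeq on GRCm38.p6, 5′ to 3′ on the minus strand, on which all 3 genes lie. Each is the part of the 250 bases before the RefSeq start that also lies before the start of the gene in GENCODE. The stretches are chr10:22820175-22820393 (219 bases), chr9:87731261-87731510 (250 bases) and chr1:163313711-163313900 (190 bases). Capitals mark matches, on either strand, to 6 motifs: the T-box core site GGTGTG, the E-box CANNTG bound by bHLH factors, the homeodomain site TAATTA, the EBF site CCCNNGGG, the TATA box TATAAA and the GC box GGGCGG.
Tcf21: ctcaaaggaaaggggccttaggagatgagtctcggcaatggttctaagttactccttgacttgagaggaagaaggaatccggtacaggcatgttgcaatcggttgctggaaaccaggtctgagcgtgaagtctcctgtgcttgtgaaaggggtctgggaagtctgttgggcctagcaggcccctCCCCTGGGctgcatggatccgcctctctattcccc
Tbx18: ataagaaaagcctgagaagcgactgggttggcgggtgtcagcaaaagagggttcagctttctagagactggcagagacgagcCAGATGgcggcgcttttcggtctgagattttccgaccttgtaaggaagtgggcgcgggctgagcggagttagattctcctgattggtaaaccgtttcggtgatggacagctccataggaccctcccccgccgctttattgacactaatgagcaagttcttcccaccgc
Prrx1: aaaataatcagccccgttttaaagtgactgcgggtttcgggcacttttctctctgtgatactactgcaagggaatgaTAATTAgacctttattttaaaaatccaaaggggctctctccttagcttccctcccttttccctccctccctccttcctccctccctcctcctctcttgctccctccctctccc
The 250 bases before Tcf21 held 1 EBF match, those before Tbx18 1 E-box and those before Prrx1 1 homeodomain site, and no match overlapped another. Of 32851 RefSeq windows of 250 bases, 11.8% held the EBF site, 66.2% an E-box, 4.84% the homeodomain site, 16.3% the T-box core site, 12.4% the TATA box and 32.7% the GC box. RefSeq windows were matched for 7 of the 10 members, and Tbx5, Tbx15 and Wt1 are named only.

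Tcf21 is a bHLH factor of the mesenchyme of visceral organs and of the outer layer of the heart, and a known mark of white fat precursors (ENSMUSG00000045680, chromosome 10, 22817281 to 22820174, minus strand). It had 2.20, 2.14 and 2.29 CPM in aPVAT cKO and 3.23, 2.86, 2.54 and 2.26 CPM in aPVAT controls. Its tPVAT levels were 0.250, 0.167, 0.477 and 0.211 CPM in cKO and 0.257, 0.319, 0.161 and 0.160 CPM in controls. The depots did not overlap in either genotype, and the tPVAT values rest on 7 to 24 counts per library. Tcf21 was higher in aPVAT by 3.01 on the log2 scale in cKO (SE 0.267, adjusted p = 1.76e-07) and by 3.56 in controls (SE 0.266, adjusted p = 1.68e-08). The call and its direction were kept in all 25 alternatives of each comparison, library totals included. The genotype contrasts did not pass in aPVAT (−0.30, SE 0.224, adjusted p = 0.616) or in tPVAT (0.25, SE 0.323, adjusted p = 0.664), and the tPVAT value changed sign without tPVAT cKO 3 (−0.13). Markers of fibroblasts and adipocyte progenitors, cells in which Tcf21 is known, summed to 3902 to 5000 CPM in aPVAT cKO, 4593 to 5892 in aPVAT controls, 2297 to 3174 in tPVAT cKO and 2705 to 3403 in tPVAT controls. Of those 14 markers 10 were higher in aPVAT in each genotype and none lower, with a median log2 difference of 0.61 in cKO and 0.74 in controls. Their part in the Tcf21 difference was not tested. In bulk tissue, fewer cells of a type and less RNA per cell cannot be told apart.

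Tbx5 patterns the heart and the forelimb (ENSMUSG00000018263, chromosome 5, 119832668 to 119885219, plus strand). It had 0.896, 0.596 and 0.706 CPM in aPVAT cKO and 1.19, 0.761, 0.719 and 0.613 CPM in aPVAT controls. In tPVAT it had 4.41, 3.22, 4.198 and 3.97 CPM in cKO and 4.57, 4.16, 5.08 and 5.04 CPM in controls. Every aPVAT library lay below every tPVAT library. Tbx5 was lower in aPVAT in cKO (−2.42, SE 0.214, adjusted p = 1.71e-07) and in controls (−2.52, SE 0.190, adjusted p = 1.83e-08), in all 25 alternatives of each. Its genotype contrasts did not pass (−0.16, SE 0.217, adjusted p = 0.795 in aPVAT; −0.25, SE 0.174, adjusted p = 0.387 in tPVAT).

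Heart muscle markers moved with Tbx5 between the depots. They summed to 25.7 to 28.1 CPM in aPVAT cKO, 23.2 to 27.9 in aPVAT controls, 94.2 to 244 in tPVAT cKO and 248 to 331 in tPVAT controls, and all 11 were lower in aPVAT in both genotypes. The heart muscle myosin gene Myh6 averaged 0.231 CPM in aPVAT cKO, 0.196 in aPVAT controls, 57.0 in tPVAT cKO and 97.6 in tPVAT controls. Of the 11 markers 5 were lower in tPVAT cKO than in tPVAT controls. The part of heart tissue in the Tbx5 level of tPVAT was not tested.

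Set against each other within a library, which needs no scaling, Tcf21 and Tbx5 gave a ratio of counts of 2.46, 3.6 and 3.24 in aPVAT cKO and of 2.71, 3.76, 3.53 and 3.68 in aPVAT controls. The ratio was 0.0567, 0.0518, 0.114 and 0.0531 in tPVAT cKO and 0.0563, 0.0766, 0.0317 and 0.0318 in tPVAT controls. The ratio was higher in every aPVAT library than in any tPVAT library. Among the members Tcf21 and Tbx5 had the largest rise and fall between these depots, so the ratio restates their calls, free of scaling. It is no separate support. The 2 genotypes overlapped within each depot.

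**Figure D2:**
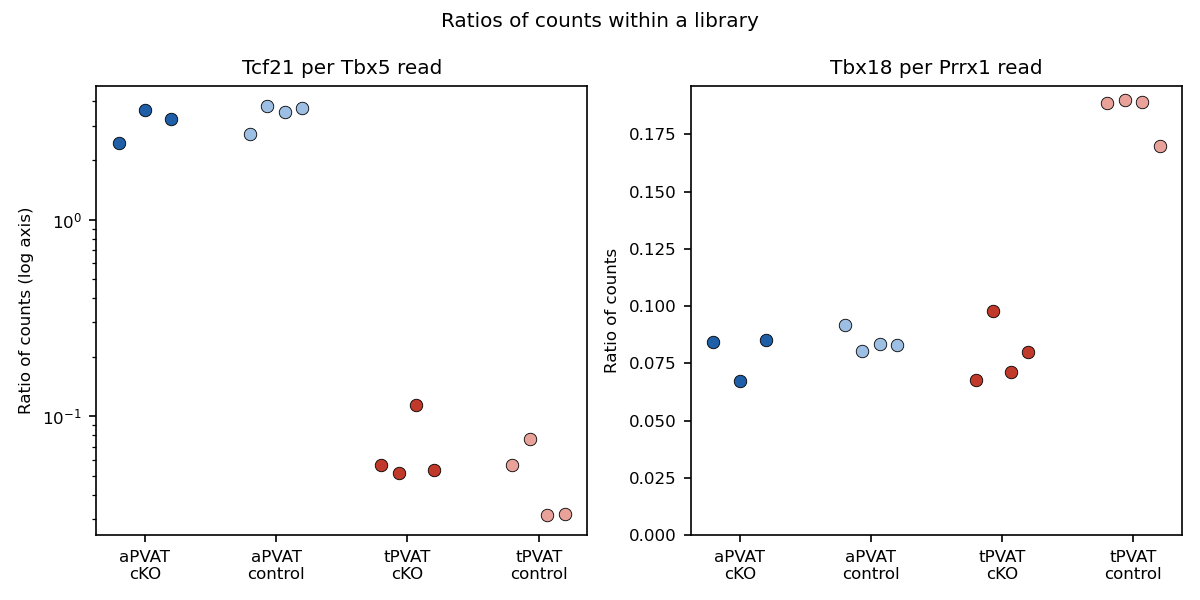
Ratio of Tcf21 to Tbx5 counts (left, log axis) and of Tbx18 to Prrx1 counts (right, axis from 0) in each library, by group. On the left the 7 aPVAT libraries lie between 2.46 and 3.76 and the 8 tPVAT libraries between 0.0317 and 0.114; on the right the tPVAT controls lie above the other 3 groups. Each ratio sets members with opposite calls in these same libraries against each other.

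Tbx1, a T-box factor of the pharynx and of head muscle that is also used as a mark of beige adipocytes, was lower in aPVAT (ENSMUSG00000009097, chromosome 16, 18580979 to 18590671, minus strand). It had 3.85, 3.36 and 3.77 CPM in aPVAT cKO, against 18.2, 5.89, 6.53 and 9.34 CPM in tPVAT cKO. In controls it had 4.55, 3.40, 3.64 and 3.69 CPM in aPVAT, against 10.7, 7.19, 9.46 and 11.9 CPM in tPVAT. The depots did not overlap, and the log2 difference was −1.45 in cKO (SE 0.308, adjusted p = 0.00102) and −1.36 in controls (SE 0.278, adjusted p = 0.000606). With library totals alone both calls held, at −0.79 and −0.61.

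The library tPVAT cKO 1 had the most Tbx1 of all 15 libraries. The genotype contrast in tPVAT stood at 0.02 (SE 0.270, adjusted p = 0.969) with that library and at −0.44 (adjusted p = 0.156) without it. In aPVAT that contrast was −0.06 (SE 0.303, adjusted p = 0.951). Skeletal muscle markers summed to 22.0, 18.9, 6.90 and 17.0 CPM in tPVAT cKO and to 11.99, 13.1, 19.8 and 81.4 CPM in tPVAT controls. They summed to 3.70 to 15.1 CPM in aPVAT cKO and 4.11 to 7.20 in aPVAT controls. The library with the most of these markers also had the most Tbx1 of its group in tPVAT cKO (18.2 CPM) and tPVAT controls (11.9 CPM). The same held in aPVAT controls (4.55 CPM), while in aPVAT cKO the library with the most markers had the least Tbx1 (3.36 CPM). The part of skeletal muscle in the depot difference was not tested.

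Lhx8, a LIM homeobox factor known as a mark of classical brown fat, was a gene of low level (ENSMUSG00000096225, chromosome 3, 154306294 to 154330659, minus strand). It had 1.59, 1.30 and 1.18 CPM in aPVAT cKO, against 1.20, 0.990, 0.754 and 0.833 CPM in aPVAT controls. The tPVAT levels were 1.95, 2.37, 2.23 and 2.21 CPM in cKO, against 1.33, 1.56, 1.81 and 1.422 CPM in controls. All tPVAT cKO libraries lay above all tPVAT controls, while 1 aPVAT cKO library lay below the highest aPVAT control. Lhx8 rose in tPVAT cKO close to the threshold (0.52, SE 0.162, adjusted p = 0.0484). The size in aPVAT was alike but did not pass (0.53, SE 0.175, adjusted p = 0.191), and the interaction was 0.01 (SE 0.230, adjusted p = 0.998). The tPVAT call was lost in 13 of 24 alternatives, 10 of them with 1 library left out (0.45 to 0.61, adjusted p 0.0241 to 0.133 over all 15 such fits). Those 10 were every tPVAT cKO library, tPVAT controls 1, 2 and 4, aPVAT controls 2 and 4, and aPVAT cKO 3.

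Lhx8 was lower in aPVAT in cKO (−0.68, SE 0.174, adjusted p = 0.00381) and in controls (−0.69, SE 0.166, adjusted p = 0.00212), but with library totals alone these were −0.03 (adjusted p = 0.878) and 0.05 (adjusted p = 0.779). Among the 12 adipocyte markers 4 rose in tPVAT cKO and none fell (median 0.31). Their part in the Lhx8 difference was not tested. Among the 10 thermogenic markers 3 fell there, Prdm16, Cox8b and Otop1 (median −0.38), and none rose. Prdm16 is the targeted gene, so its fall was set by the design, and the count and median include it.

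Zic1, the other factor best known from brown fat of the back, was at the floor (ENSMUSG00000032368, chromosome 9, 91358058 to 91365810, minus strand). The 15 libraries together held 8 Zic1 reads: 8 libraries had 0, 6 had 1 and 1 aPVAT control had 2. A count of 0 allows up to 3 counts, or 0.0348 to 0.0688 CPM in the 8 libraries with 0, a limit that covers counting error only. No fold change is given.

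Tbx18, which marks the mural cells of vessels and the outer layer of the heart, fell in tPVAT cKO (ENSMUSG00000032419, chromosome 9, 87702800 to 87731260, minus strand). In tPVAT it had 4.84, 5.91, 5.39 and 6.002 CPM in cKO, against 9.02, 8.24, 9.39 and 7.38 CPM in controls. In aPVAT it had 5.11, 4.87 and 4.92 CPM in cKO, against 3.98, 6.32, 4.77 and 4.38 CPM in controls. Every tPVAT cKO library lay below every tPVAT control, and the aPVAT cKO libraries lay inside the range of the aPVAT controls. The log2 fold change was −0.62 in tPVAT (SE 0.129, adjusted p = 0.00464), kept in all 24 alternatives (−0.68 to −0.54), and 0.03 in aPVAT (SE 0.138, adjusted p = 0.940).

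The interaction for Tbx18 was 0.65 (SE 0.188, adjusted p = 0.171). It passed without aPVAT control 2 (0.80, adjusted p = 0.0154), without both aPVAT control 2 and aPVAT cKO 4 (0.81, adjusted p = 0.0322), and with a weight per library (0.75, adjusted p = 0.0393). Tbx18 was lower in aPVAT in controls (−0.81, SE 0.128, adjusted p = 5.80e-05) and did not pass in cKO (−0.16, SE 0.139, adjusted p = 0.366). With library totals alone the control difference was −0.06 (adjusted p = 0.668), and Tbx18 was higher in aPVAT in cKO by 0.50 (adjusted p = 0.00491).

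Markers of smooth muscle and pericytes, where Tbx18 is known, summed to 2257 to 2412 CPM in tPVAT cKO, below the 2574 to 3217 CPM of tPVAT controls, and to 2804 to 3396 CPM in aPVAT cKO and 2200 to 3460 CPM in aPVAT controls. Of these 9 markers 2 fell in tPVAT cKO and none rose, with a median of −0.32: Kcnj8, a potassium channel of pericytes (−0.37, SE 0.0894, adjusted p = 0.0131), and Notch3, a receptor of mural cells (−0.38, SE 0.102, adjusted p = 0.0240). Notch3 no longer passed when tPVAT control 1, tPVAT control 4, tPVAT cKO 1 or tPVAT cKO 3 was left out, or with library totals alone (adjusted p up to 0.0812). Pdgfrb, a receptor of pericytes and fibroblasts, also fell (−0.36, SE 0.0775, adjusted p = 0.00660). Pdgfrb is not among these 9 markers but among the 14 of fibroblasts and adipocyte progenitors, of which it alone fell (median −0.07). The part of mural cells in the Tbx18 difference was not tested. A transcript on the opposite strand, D030062O11Rik, shares 20.6% of the exon bases of Tbx18. Its mean level was 0.128 CPM in aPVAT cKO, 0.203 in aPVAT controls, 0.177 in tPVAT cKO and 0.259 in tPVAT controls.

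Prrx1, a homeobox factor of limb and fat precursor mesenchyme, moved the other way (ENSMUSG00000026586, chromosome 1, 163245119 to 163313710, minus strand). Its tPVAT levels were 71.6, 60.3, 75.9 and 74.9 CPM in cKO, against 47.8, 43.4, 49.7 and 43.5 CPM in controls. In aPVAT it had 60.6, 72.4 and 57.7 CPM in cKO, against 43.5, 78.8, 57.2 and 52.6 CPM in controls. The tPVAT groups did not overlap, and the aPVAT cKO libraries lay within the control range, whose highest library was aPVAT control 2. Prrx1 rose in tPVAT cKO (0.62, SE 0.141, adjusted p = 0.00880; 0.58 to 0.69 and called in all 24 alternatives). It did not pass in aPVAT (0.13, SE 0.151, adjusted p = 0.752), nor did the interaction (−0.48, SE 0.207, adjusted p = 0.498). Without aPVAT control 2 and aPVAT cKO 4 the aPVAT value was 0.38 (adjusted p = 0.123) and the interaction −0.24 (adjusted p = 0.708).

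Among the 14 markers of fibroblasts and adipocyte progenitors 1, Pdgfrb, fell in tPVAT cKO and none rose (median −0.07). Between the depots Prrx1 differed by −0.15 in cKO (SE 0.151, adjusted p = 0.420) and by 0.33 in controls (SE 0.140, adjusted p = 0.0558). The control difference passed without aPVAT control 1 (0.45, adjusted p = 0.00686), and with library totals alone Prrx1 was higher in aPVAT in cKO (0.51, adjusted p = 0.00546) and in controls (1.08, adjusted p = 2.99e-06). Of the protein-coding genes next to the 10 members, 14 of 20 were tested. By genotype 1 of these 14 passed in tPVAT, where 12% of all tested genes passed, so this call is not above that background. It was Gorab, a Golgi protein gene beside Prrx1. Gorab rose in tPVAT cKO by 0.36 (SE 0.0957, adjusted p = 0.0225), a call lost without tPVAT control 4, tPVAT cKO 1 or tPVAT cKO 4 (0.31 to 0.33, adjusted p up to 0.0767).

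Within each library Tbx18 had 0.0843, 0.0673 and 0.0852 counts per Prrx1 count in aPVAT cKO and 0.0916, 0.0803, 0.0834 and 0.0832 in aPVAT controls. In tPVAT the ratio was 0.0676, 0.0980, 0.0710 and 0.0801 in cKO, against 0.189, 0.190, 0.189 and 0.170 in controls. The tPVAT control libraries were thus apart from all 11 others, and the tPVAT cKO libraries overlapped both aPVAT groups. Tbx18 and Prrx1 had opposite calls in these same tPVAT libraries, so the separation of tPVAT controls from tPVAT cKO restates those calls. It is no separate support.

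**Figure D3:**
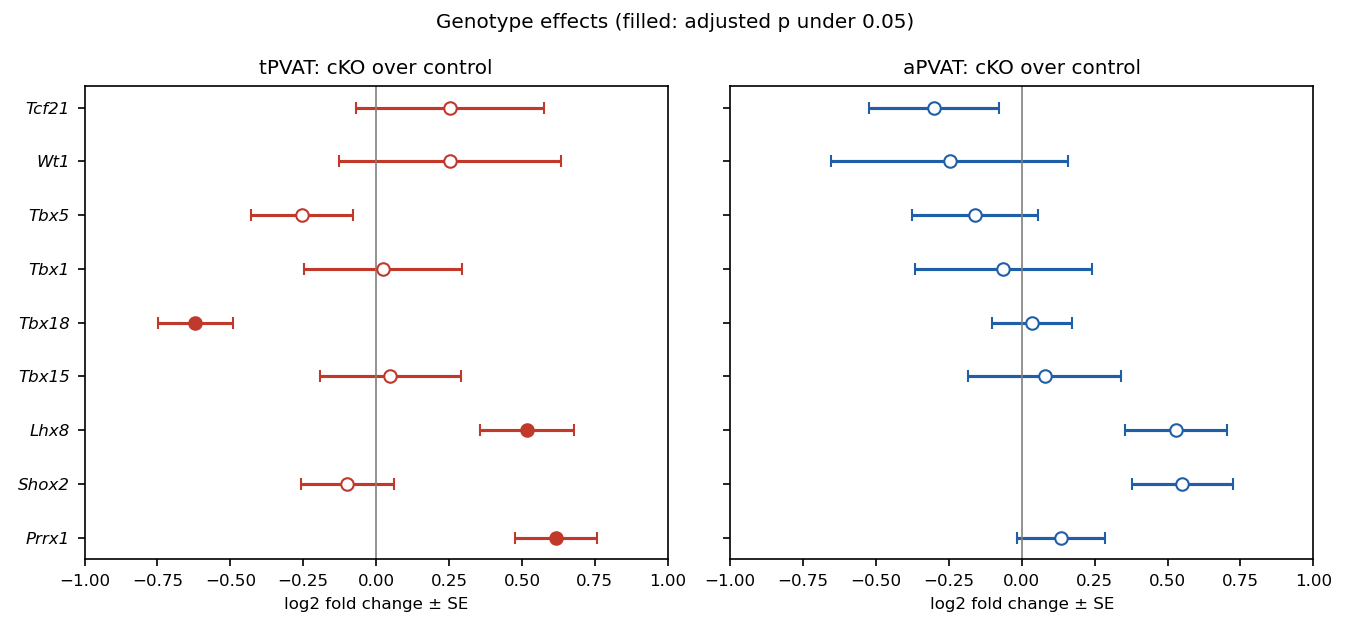
Log2 fold change of cKO over control with its SE for the 9 tested members in tPVAT (left) and aPVAT (right); filled points have an adjusted p under 0.05. Tbx18 (−0.62), Prrx1 (0.62) and Lhx8 (0.52) are filled in tPVAT and none is filled in aPVAT.

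Shox2, a homeobox factor of the limb and of the sinus node of the heart, was lower in aPVAT controls (ENSMUSG00000027833, chromosome 3, 66971727 to 66981771, minus strand). It had 4.80, 4.24 and 3.49 CPM in aPVAT cKO, against 2.27, 3.62, 2.46 and 3.11 CPM in aPVAT controls. In tPVAT it had 4.31, 3.89, 5.59 and 5.52 CPM in cKO, against 5.28, 4.46, 5.47 and 5.46 CPM in controls. The aPVAT genotypes overlapped by 1 library, aPVAT cKO 4 lying below aPVAT control 2, the pair with the most structural RNA. The aPVAT contrast was 0.55 (SE 0.172, adjusted p = 0.161) with all libraries and passed without that pair (0.79, adjusted p = 0.0387). Leaving out that pair also removes the overlap. The contrast did not pass with any single library left out (lowest adjusted p = 0.0527). In tPVAT it was −0.10 (SE 0.160, adjusted p = 0.747), and the interaction did not pass (0.65, SE 0.236, adjusted p = 0.361).

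Between the depots Shox2 differed by −0.20 in cKO (SE 0.173, adjusted p = 0.344) and by −0.85 in controls (SE 0.162, adjusted p = 0.000331). With library totals alone these were 0.46 (adjusted p = 0.0215) and −0.10 (adjusted p = 0.565). Shox2 shares 4.62% of its exon bases with Rsrc1 on the opposite strand, a splicing factor gene with mean levels between 14.8 and 18.5 CPM in the 4 groups. Whether counting used the strand is not given in the sources used here.

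Tbx15, a T-box factor of skin, skeleton and some fat depots, had the lowest mean per exon length of the tested members in aPVAT (ENSMUSG00000027868, chromosome 3, 99240381 to 99354259, plus strand). It had 0.419, 0.488 and 0.321 CPM in aPVAT cKO and 0.319, 0.396, 0.441 and 0.417 CPM in aPVAT controls. The tPVAT levels were 0.697, 0.718, 0.557 and 0.499 CPM in cKO and 0.673, 0.487, 0.390 and 0.848 CPM in controls. Its counts were 15 to 43 per library. The control depots overlapped, and the difference of −0.60 passed by little (SE 0.245, adjusted p = 0.0462). It was lost in 15 of 25 alternatives, 9 of them with 1 library left out (adjusted p up to 0.187, without tPVAT control 4), and was 0.14 with library totals alone. In cKO the depot difference of −0.57 did not pass (SE 0.263, adjusted p = 0.0788), and neither did the genotype contrasts (0.08, SE 0.263, in aPVAT and 0.05, SE 0.243, in tPVAT). Wars2, the gene of a mitochondrial tRNA ligase next to Tbx15, was lower in aPVAT controls than in tPVAT controls (−0.78, SE 0.0721, adjusted p = 1.98e-07). With library totals alone Wars2 stood at −0.03 (adjusted p = 0.694). Of the 14 tested neighbours of members 2 were higher and 4 lower in aPVAT controls, where 56.6% of all tested genes passed. The call of a neighbour is thus not above that background.

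**Figure D4:**
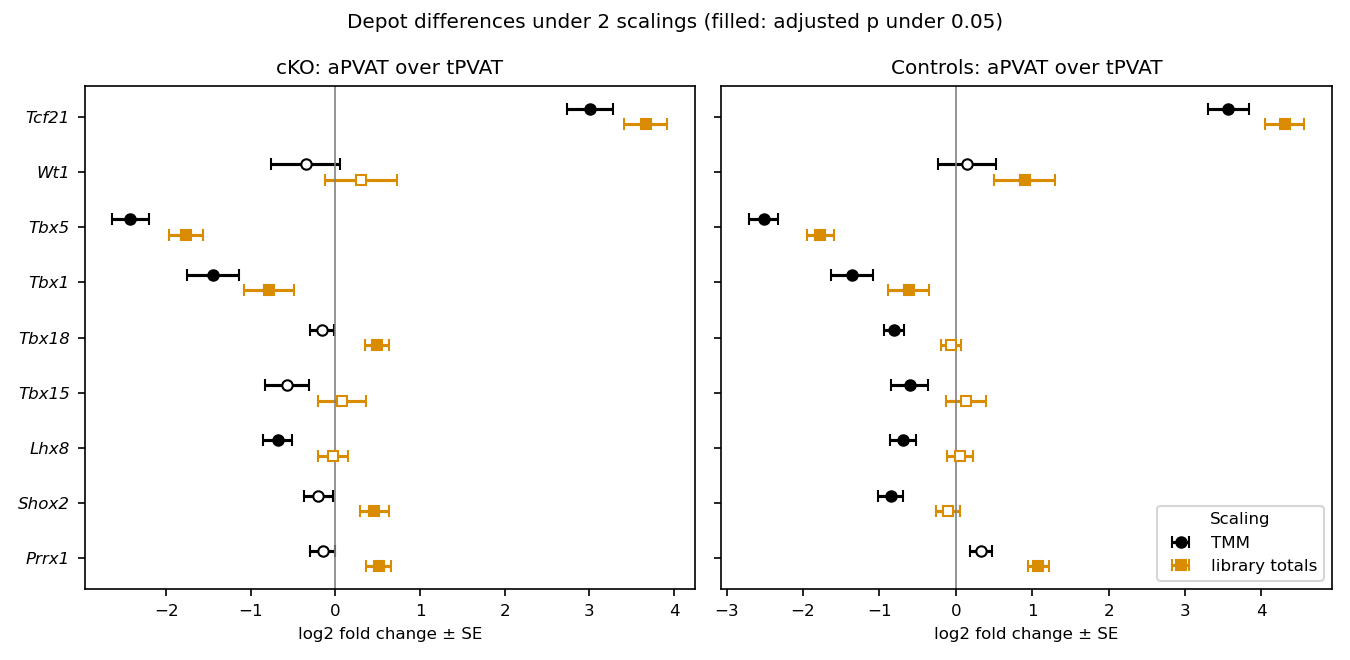
Log2 difference of aPVAT over tPVAT with its SE for the 9 tested members in cKO (left) and in controls (right), by TMM (circles) and by library totals alone (squares); filled points have an adjusted p under 0.05. Tcf21, Tbx5 and Tbx1 are filled on the same side of 0 under both scalings, and Lhx8, Tbx15, Tbx18 and Shox2 move to about 0 or above it by library totals.

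Wt1, a zinc finger factor of mesothelium and of visceral fat precursors, varied more within groups than between them (ENSMUSG00000016458, chromosome 2, 105126529 to 105173616, plus strand). It had 4.75, 6.56 and 2.03 CPM in aPVAT cKO and 5.42, 2.50, 5.002 and 8.44 CPM in aPVAT controls. In tPVAT it had 5.79, 7.33, 6.62 and 3.28 CPM in cKO and 4.79, 6.56, 5.35 and 2.59 CPM in controls. All 4 groups overlapped. By library number the order was the same in both tPVAT groups, and the aPVAT groups did not share one. The coefficient of variation was 51.3%, 45.7%, 30.7% and 34.4% in aPVAT cKO, aPVAT controls, tPVAT cKO and tPVAT controls, where the median tested gene had 11.1%, 13.2%, 10.3% and 10.05%. The genotype contrasts were −0.25 in aPVAT (SE 0.405, adjusted p = 0.837) and 0.25 in tPVAT (SE 0.381, adjusted p = 0.726). The depot differences were −0.35 in cKO (SE 0.409, adjusted p = 0.489) and 0.15 in controls (SE 0.378, adjusted p = 0.759), and the control difference was 0.90 (adjusted p = 0.0467) with library totals alone.

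Markers of mesothelium were low in the libraries low in Wt1. Their 13 measured genes summed to 117, 205 and 50.5 CPM in aPVAT cKO, 144, 63.6, 115 and 171 CPM in aPVAT controls, 175, 226, 232 and 118 CPM in tPVAT cKO and 134, 234, 169 and 93.1 CPM in tPVAT controls. The library with the least Wt1 in each group had the least mesothelium markers of its group. Wt1 had 0.0320 to 0.0405 counts per mesothelium count in aPVAT cKO, 0.0376 to 0.0493 in aPVAT controls, 0.0278 to 0.0331 in tPVAT cKO and 0.0278 to 0.0358 in tPVAT controls, so the ratio spread less within a group than either level did. None of the 13 markers was at 0 in any group, and 0 passed by genotype in either depot, with 0 at an unadjusted p under 0.05. Markers of kidney, another tissue with Wt1, summed to 0.770 to 5.33 CPM in aPVAT cKO, 2.10 to 3.37 in aPVAT controls, 6.71 to 15.4 in tPVAT cKO and 5.32 to 17.3 in tPVAT controls, and Umod was at 0 in every library. A single gene carried most of these sums: Lrp2 averaged 2.10 CPM in aPVAT cKO, 1.95 in aPVAT controls, 11.1 in tPVAT cKO and 9.61 in tPVAT controls. Aqp2, the other tested kidney marker, had the opposite order, at 0.479 CPM in aPVAT cKO, 0.713 in aPVAT controls, 0.119 in tPVAT cKO and 0.133 in tPVAT controls. The part of mesothelium in the Wt1 level was not tested.

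**Figure D5:**
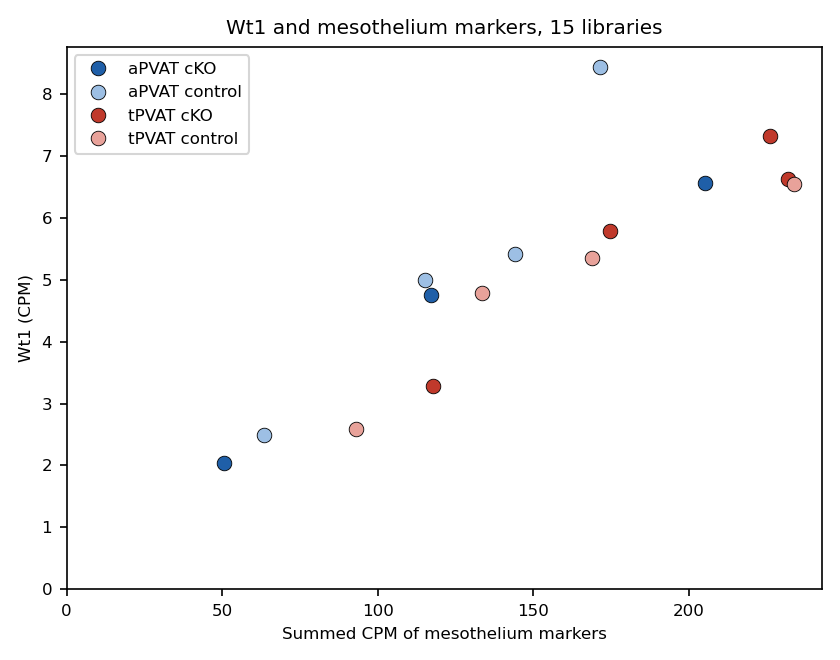
Wt1 (CPM) against the summed CPM of 13 mesothelium markers in each of the 15 libraries, coloured by group. The library lowest in Wt1 in each group is also the lowest in the markers, and within the tPVAT groups the points run from 2.59 and 3.28 CPM up to 6.56 and 7.33 CPM.

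Per exon length the order of the members differed between the depots. Prrx1 was highest in all 4 groups, at 5.75 ± 0.704 RPKM (CPM per kilobase of exon) in aPVAT cKO, 5.24 ± 1.35 in aPVAT controls, 6.39 ± 0.647 in tPVAT cKO and 4.17 ± 0.287 in tPVAT controls (SD; n = 3, 4, 4 and 4), and its range overlapped that of no other member. Zic1 was lowest throughout. Tcf21 ranked 5 in aPVAT cKO at 0.941 ± 0.0313 RPKM and 2 in aPVAT controls at 1.16 ± 0.179, but 9 in tPVAT cKO at 0.118 ± 0.0589 and in tPVAT controls at 0.0955 ± 0.0330. Tbx1 ranked 2 in tPVAT, at 2.84 ± 1.61 RPKM in cKO and 2.80 ± 0.575 in controls. Tbx5 stood at 0.157 ± 0.0325 RPKM in aPVAT cKO, 0.176 ± 0.0545 in aPVAT controls, 0.845 ± 0.111 in tPVAT cKO and 1.01 ± 0.0931 in tPVAT controls. In aPVAT the members from Shox2, Tbx18, Tbx1 and Tcf21 to Wt1 and Lhx8 each overlapped the next in the order. Adjacent ranks among them are thus not apart beyond the spread between libraries. Lhx8 reached at most 0.627 RPKM in aPVAT cKO and 0.475 in aPVAT controls. In each of these groups that is below every library's value of Shox2, Tbx18, Tbx1 and Tcf21.

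Among 97 other patterning factors of the same families and of somite, lateral plate and bHLH mesenchyme, 64 were tested. By genotype 0 passed in aPVAT (2 at an unadjusted p under 0.05), and in tPVAT 3 rose and 2 fell, where 5.44% of all tested genes rose and 6.61% fell. These 5 calls are not above that background. Among those that rose in tPVAT cKO were the paired-class factor Alx4 (1.20, SE 0.303, adjusted p = 0.0161) and the homeobox factor Irx2 (0.56, SE 0.174, adjusted p = 0.0495). Those that fell were the homeobox factor En2 (−1.15, SE 0.317, adjusted p = 0.0260) and the forkhead factor Foxc2 (−0.39, SE 0.109, adjusted p = 0.0283). Alx4 had 0.419 ± 0.0558 CPM in tPVAT cKO and 0.179 ± 0.0518 CPM in tPVAT controls, and En2 0.165 ± 0.0254 CPM in cKO and 0.371 ± 0.0793 CPM in controls (SD, n = 4 each), levels of 5 to 26 counts per library. Of 24 alternatives 23 kept the call of Alx4, 12 that of Irx2, 17 that of En2 and 18 that of Foxc2, and the rest lost it in the same direction.

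Between the depots 24 of the 64 were higher and 14 lower in aPVAT in cKO, and 26 were higher and 15 lower in controls. Of all tested genes 52.6% were called in cKO (27.2% higher, 25.4% lower) and 56.6% in controls (29.3% higher, 27.3% lower). A depot call as such thus sets none of these factors apart. In controls Nr2f2, a nuclear receptor of veins and visceral mesenchyme, was higher in aPVAT, at 64.2 ± 9.22 CPM against 32.0 ± 1.09 CPM in tPVAT (1.003, SE 0.0795, adjusted p = 3.18e-08). Lhx6, a relative of Lhx8, was higher, at 8.89 ± 0.806 CPM against 4.00 ± 0.545 CPM (1.15, SE 0.109, adjusted p = 2.62e-07), and so was the transcription cofactor Eya2 (1.11, SE 0.122, adjusted p = 1.26e-06). Lhx9, a LIM factor known from gonad and limb, had 30 to 52 counts in the aPVAT controls and 0 to 2 in the tPVAT controls. Pitx3, known from lens and muscle, had 2 to 14 counts in aPVAT controls and 30 to 67 in tPVAT controls (−3.62, SE 0.449, adjusted p = 4.97e-06).

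Irx2 (−1.87, SE 0.191, adjusted p = 6.13e-07) and the sclerotome factor Pax1 (−1.36, SE 0.188, adjusted p = 1.53e-05) were lower in aPVAT controls than in tPVAT controls. All 7 of these depot calls held in all 25 alternatives. Tbx3, the neighbour and close relative of Tbx5, was lower in aPVAT by TMM, at 9.45 ± 1.44 CPM against 15.4 ± 2.76 CPM (−0.71, SE 0.118, adjusted p = 0.0001004), but was at 0.03 (adjusted p = 0.806) with library totals alone. Twist2, a bHLH relative of Tcf21, was higher in aPVAT controls (0.66, SE 0.127, adjusted p = 0.000384). So was Nt5e, a surface enzyme gene (1.05, SE 0.0907, adjusted p = 9.04e-08). Nt5e is the nearest protein-coding gene on 1 side of Tbx18, at a gap of 596 kb, and Tbx18 went the other way (−0.81). The 8 tested T-box factors outside the members had 0 calls by genotype in either depot, with 0 in tPVAT and 1 in aPVAT at an unadjusted p under 0.05.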

How the data were processed

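Poly(A) libraries were made with a stranded mRNA kit, per the labels' protocols. The authors deposited raw counts per Ensembl gene for 15 libraries. Per the submitters' processing notes the build was mm10, and Salmon, Subread and DESeq2 1.42.1 are named without a role. For the counting, neither tool nor annotation nor strand use is given in the sources used here. A library numbered 2 in aPVAT cKO is not used here. Symbols came from GENCODE M21 (42468 of 43352 identifiers). Counts were fitted with edgeR 4.0.16 in R 4.3.3 after filterByExpr (minimum count 10, 19645 genes kept), with TMM and a quasi-likelihood model of 4 group means over all 15 libraries. The fit was run on simulated data with changes in tPVAT cKO only. Those data held no depot difference, so that run does not cover the depot comparisons. P-values were adjusted by Benjamini and Hochberg over all genes tested, threshold 0.05. SE is the log2 fold change divided by the square root of F. RPKM used the union of exons. Alternatives used DESeq2 1.42.0, limma 3.58.1, other scalings and filters, blocks, and libraries left out. Members and lists were chosen with earlier results of these data known. Named genes are the members, Prdm16, adjacent genes, up to 4 called genes with the smallest p per patterning list, and up to 3 markers per cell list, of which those described here are a part; 1 named gene is not reported here.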

Additional observations from a re-analysis of the deposited data

Results flagged for a closer look

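Of 129 groups of 4 libraries examined for a single library far from the others, 8 had one, where chance alone gives about 1 in 20. Skeletal muscle markers summed to 81.4 CPM in tPVAT control 4, far above the other tPVAT controls. Heart muscle markers summed to 331 CPM in tPVAT control 3, the highest of its group. In tPVAT cKO 3 the ratio of Tcf21 to Tbx5 counts was 0.114, the highest of its group and still below every aPVAT library. In tPVAT control 4 the ratio of Tbx18 to Prrx1 counts was 0.170, the lowest of its group and still above every library of the other 3 groups. Kcnj8 was high at 20.9 CPM and Tbx3 at 14.7 CPM in tPVAT cKO 4, Gorab was low at 4.95 CPM in tPVAT control 4, and Nr2f2 was high at 77.9 CPM in aPVAT control 2. None of the 9 tested members had such a library in CPM, and Zic1 was not examined. The group aPVAT cKO, with 3 libraries, could not be examined in this way.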

How the results depend on the processing

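Calls of Tbx18 and Prrx1 in tPVAT and of Tcf21, Tbx5 and Tbx1 between the depots were kept under every alternative run. Library totals alone turned the sign of Lhx8 (0.052), Tbx15 (0.14) and Tbx3 (0.034) between depots in controls, and of Tbx15 (0.079), Tbx18 (0.50), Wt1 (0.31), Shox2 (0.46) and Prrx1 (0.51) in cKO. In the interaction they turned Lhx8 (−0.083) and Tbx15 (−0.060). The share of called genes that were higher was 66.9% with totals against 45.2% in tPVAT by genotype, 36.6% against 48.5% in aPVAT, and 9.50% against 20.1% in the interaction. Weights per library turned Tbx5 in aPVAT (0.12) and Tbx15 in the interaction (−0.063). Genes called in tPVAT numbered 4080 with those weights and 3726 with only the groups compared, against 2367. In aPVAT 604 were called by DESeq2, 92 with only the groups compared and 161 to 398 with 1 library left out (161 without aPVAT cKO 1), against 301. DESeq2 called 350 genes in the interaction, against 154. Without aPVAT control 2 and aPVAT cKO 4, 1 member (Shox2) passed in aPVAT and 1 (Tbx18) in the interaction. In the interaction 1 member passed with weights, and 0 to 1 with 1 library left out. The cause was not tested for any of these.

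Values of contrasts without a call crossed 0 when 1 library was left out. By genotype in tPVAT these were Tbx1 (−0.44 to 0.21), Tbx15 (−0.10 to 0.25) and Tcf21 (−0.13 to 0.48). In aPVAT they were Tbx1 (−0.11 to 0.031), Tbx5 (−0.35 to 0.079), Tbx15 (−0.065 to 0.20), Tbx18 (−0.049 to 0.18) and Wt1 (−0.63 to 0.077). Wt1 between depots in controls ran over −0.16 to 0.38. In the interaction they were Lhx8 (−0.12 to 0.15), Tbx1 (−0.25 to 0.38), Tbx5 (−0.10 to 0.33) and Tbx15 (−0.18 to 0.18).

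Deviations of libraries with the same number in 2 groups correlated at −0.22 to 0.17, beside −0.21 to 0.29 for libraries with different numbers. Between tPVAT cKO and tPVAT controls these were 0.056 to 0.147 and −0.208 to 0.119, and 2 of 4 libraries best matched the same number. With 3 or 4 libraries a group this cannot decide whether the numbers pair the libraries. A replicate block gave 2392 calls in tPVAT, 312 in aPVAT, 10047 and 11004 between depots in cKO and in controls, and 160 in the interaction. It ended the call of Lhx8 in tPVAT (0.52, adjusted p = 0.0674) and of Tbx15 between depots (−0.60, adjusted p = 0.0784), and turned Tbx1 in tPVAT (−0.063). The labels do not say whether a number shared by the depots of a genotype is the same mouse. With genotype and number together as a random block Tbx1 (0.026) and Tbx15 (−0.0015) turned in the interaction. The fit of only the groups compared could not be made for the interaction, which uses all 4 groups. Depth limits Zic1, Tbx15 and the tPVAT level of Tcf21, whose counts are under 50 per library.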
